A study of Mus musculus with 6 samples.

Results

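The RANKL, osteoprotegerin and osteoclast genes are 10 genes chosen by symbol, and all 10 were found among the 48709 genes of the count table. They are the decoy receptor Tnfrsf11b (osteoprotegerin), the ligand Tnfsf11 (RANKL), its receptor Tnfrsf11a (RANK), the growth factor Csf1, the resorption enzymes Ctsk and Acp5, the fusion proteins Dcstamp and Ocstamp, the calcitonin receptor Calcr and the integrin subunit Itgb3. They were measured by RNA sequencing of gingiva, the oral mucosa around the teeth, from C57BL/6 mice aged 12 weeks. The study set Plg KO mice, deficient in plasminogen, against their Plg WT littermates, with 3 libraries a group. No other allele or treatment is given for either group, and the labels do not say which cells lack Plg, whether animals were pooled or whether each library is a separate animal, so a p-value here speaks of the spread among libraries, part of which may be technical.

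Osteoclasts are the cells that resorb bone, and around teeth they remove the alveolar bone that holds the roots. They form when precursors of the monocyte and macrophage lineage receive Csf1 and when RANKL, shown by osteoblasts, osteocytes, fibroblasts or lymphocytes, binds RANK on them. Osteoprotegerin is a secreted receptor that binds RANKL and keeps it from RANK, so the amounts of RANKL and osteoprotegerin are often read together as a balance.

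Total gene counts were 26183389 to 36429150 in Plg KO libraries and 28184139 to 36006829 in Plg WT libraries, and a count of 0 allows up to 3 counts, or 0.0824 to 0.115 CPM (counts adjusted for library size) in a library, for counting error only. Plg had 2 counts over the Plg KO libraries and 2 over the Plg WT libraries, so it does not check the genotype labels in this tissue. Markers of the labelled tissue were abundant, with 11 epithelial keratin and related genes summing to 44101 to 53279 CPM in Plg KO and 42926 to 51410 CPM in Plg WT. The libraries differed in make-up within groups. Salivary and minor gland markers summed to 8991 to 11191 CPM in Plg KO libraries, against 11729 CPM in Plg WT 1 and 3437 and 1916 CPM in Plg WT 2 and 3. Skeletal muscle markers summed to 2413 CPM in Plg KO 1, against 5629 to 11111 CPM in the other 5 libraries. Xist and Ddx3y counts marked Plg KO 1 and Plg WT 3 as male and the rest as female, so each group held both sexes.

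Osteoprotegerin was the member that rose in gingiva without Plg, while the ligand it binds was barely detected in either group. RANK, the growth factor, both resorption enzymes, the fusion proteins, the calcitonin receptor and the integrin did not pass the test or had too few counts for one. Of the 10 members, 7 passed the filter on low counts, and the quasi-likelihood test of edgeR, adjusted over all 17757 genes tested by the Benjamini-Hochberg method, called 1 of them higher and 0 lower (adjusted p below 0.05). Over all genes tested, 0.191% were called higher and 0.0451% lower. DESeq2 and limma-voom also called Tnfrsf11b alone among the members, against 1.54% and 0.18% of all genes that they called higher. At an unadjusted p below 0.05 in edgeR, 2 members were higher, Tnfrsf11b and Itgb3, as were 4.97% of all genes tested, while 4.27% were lower. The plot of all members by library shows these values on the CPM scale.

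**Figure D1:**
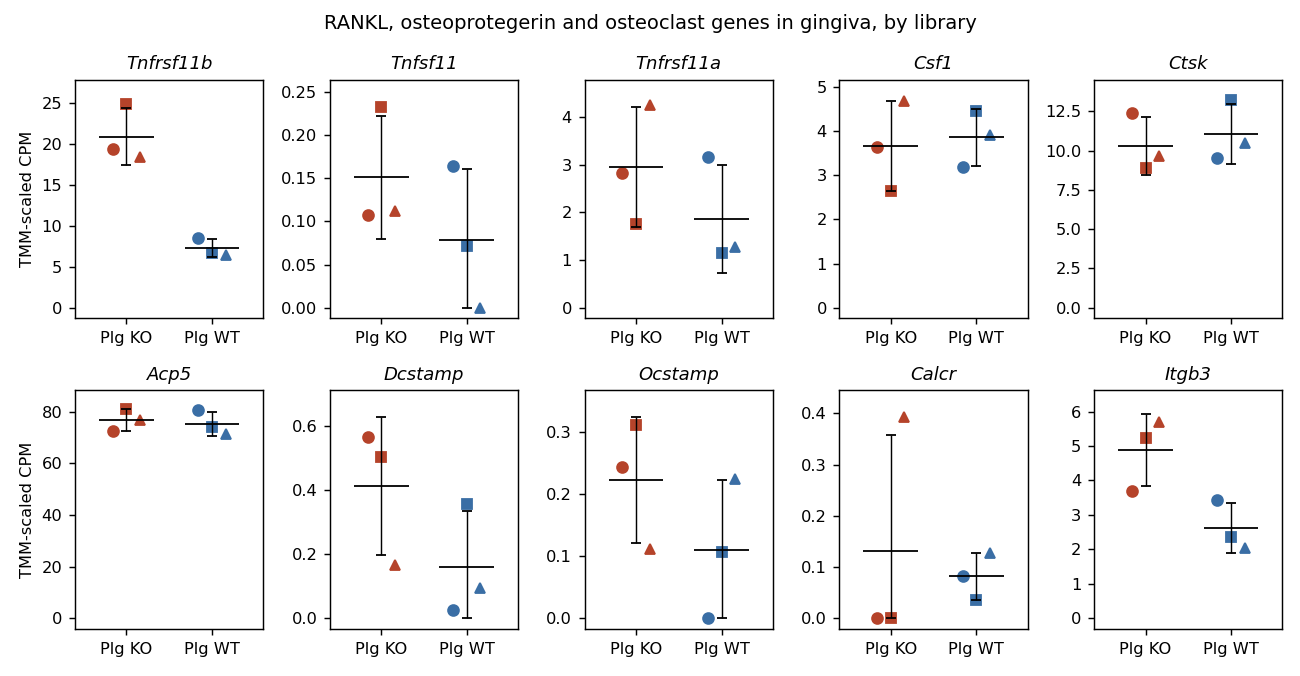
TMM-scaled CPM of the 10 genes in each library, Plg KO left (red) and Plg WT right (blue). Circles, squares and triangles are replicates 1, 2 and 3, horizontal lines are group means and error bars are SDs, cut at 0. Groups do not overlap for Tnfrsf11b (18.4 to 24.9 CPM in Plg KO, 6.503 to 8.57 CPM in Plg WT) or Itgb3 (3.70 to 5.69 CPM in Plg KO, 2.05 to 3.44 CPM in Plg WT), and overlap for the other 8. Over all genes tested, 7.51% had every Plg KO library above every Plg WT library.

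Tnfrsf11b (ENSMUSG00000063727, GRCm38 chromosome 15, 54250619 to 54278484, minus strand) had 721, 641 and 658 counts in Plg KO 1, 2 and 3, against 314, 189 and 203 counts in Plg WT 1, 2 and 3. Scaled for library size with TMM, these were 19.5, 24.9 and 18.4 CPM in Plg KO and 8.57, 6.75 and 6.503 CPM in Plg WT. Every Plg KO library stood above every Plg WT library, and the lowest Plg KO value lay well clear of the highest Plg WT value. The mean was 20.9 ± 3.48 CPM in Plg KO and 7.27 ± 1.13 CPM in Plg WT (SD, n = 3 each). The log2 change was 1.52 ± 0.17 (SE), with a 95% interval of 1.12 to 1.93 (adjusted p = 0.0251 in edgeR's test), which is 2.87-fold higher in Plg KO. Groups that did not overlap, with Plg KO above, were found for 7.51% of all genes tested.

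The call on Tnfrsf11b depended on which libraries were in the fit, while its size moved little. Leaving out 1 library at a time gave log2 changes of 1.38 to 1.66, and the call was kept without Plg KO 1 or Plg WT 1. It was lost without Plg KO 2 (adjusted p = 0.117), Plg KO 3 (adjusted p = 0.0697), Plg WT 2 (adjusted p = 0.174) and Plg WT 3 (adjusted p = 0.100), all in edgeR's test. Each of those fits called 1 or 2 genes higher over all genes, against 34 with all libraries.

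Levels of cells known to make osteoprotegerin were set beside this rise. In bulk tissue, fewer cells of a type and less RNA per cell cannot be told apart. The 9 fibroblast markers summed to 1446 to 2639 CPM in Plg KO and 2282 to 3780 CPM in Plg WT, and 8 of the 9 had a negative log2 change. The 8 endothelial markers summed to 77.2 to 110.1 CPM in Plg KO and 93.3 to 123.9 CPM in Plg WT, and 6 had a negative log2 change. Osteoblast and osteocyte markers summed to 48.4 to 92.1 CPM in Plg KO and 38.3 to 114.5 CPM in Plg WT, with the osteocyte genes Sost at 0 counts in all libraries and Mepe at 1 count over Plg KO and 2 over Plg WT. Of 9 osteoblast and osteocyte markers tested, 8 had a negative log2 change, while 8733 of all 17757 genes tested had a positive one. The exception among these markers was Runx2, a transcription factor that osteoblasts need, at 28.8, 26.9 and 28.1 CPM in Plg KO and 20.4, 19.8 and 13.8 CPM in Plg WT. Its groups did not overlap, as for 7.51% of all genes tested with Plg KO above. Its log2 difference of 0.63 ± 0.16 missed the threshold (adjusted p = 0.234 in edgeR's test), though DESeq2 called it higher, as it did 1.54% of all genes tested. Before adjustment (p below 0.05 in edgeR's test), 4 of the 9 fibroblast markers were lower, as were 4.27% of all genes tested. Of the osteoblast and osteocyte markers, 1 was lower before adjustment. Every Plg KO library lay below every Plg WT library for 3 fibroblast, 1 endothelial and 1 osteoblast or osteocyte marker, and for 7.18% of all genes tested. None of these 3 lists, nor the epithelial one, was higher in Plg KO beyond overlap of the groups. Neutrophil markers were, with sums of 140.6 to 497.8 CPM in Plg KO and 29.0 to 68.2 CPM in Plg WT. Of 7 tested, all had a positive log2 change and all 7 had groups without overlap, against 7.51% of all genes tested. Of these, edgeR called 1 higher, Clec4e, and DESeq2 called 6, against 0.191% and 1.54% of all genes tested. The part of neutrophils in the Tnfrsf11b result was not tested.

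The genes most like Tnfrsf11b in pattern were found by the root mean square difference of their centred log2 CPM from its own over the 6 libraries, among 13193 named genes that averaged 1 CPM or more. The closest was Lama3, a chain of the basement membrane protein laminin-332, at a difference of 0.114. Its levels were 142.5, 162.4 and 137.0 CPM in Plg KO and 69.7, 50.9 and 57.5 CPM in Plg WT. Next came Vnn1, a pantetheinase, at 0.138, Aldh1a3, a retinoic acid-forming dehydrogenase, at 0.145, the membrane receptor Gprc5a at 0.147 and the membrane serine protease Tmprss11g at 0.181. The median difference over all candidates was 0.772. The likeness is a description, since any gene with a similar step between the groups scores well.

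The ligand RANKL was close to the limit of detection in both groups. Tnfsf11 (ENSMUSG00000022015, chromosome 14, 78277445 to 78308043, minus strand) had 4, 6 and 4 counts in Plg KO 1, 2 and 3, against 6, 2 and 0 counts in Plg WT 1, 2 and 3. The groups overlapped, since Plg WT 1 matched the highest Plg KO library. Pooled over a group, Tnfsf11 stood at 0.142 CPM in Plg KO, with an exact 95% Poisson interval of 0.0779 to 0.239, and at 0.0834 CPM in Plg WT, with an interval of 0.0360 to 0.164. The intervals cover counting error only and overlap, so a difference in RANKL transcripts was not detectable at this depth.

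RANKL reads were a small share of the reads of the ligand and its decoy combined. The Tnfsf11 share was 0.552%, 0.927% and 0.604% in Plg KO 1, 2 and 3, against 1.88% and 1.05% in Plg WT 1 and 2. In Plg WT 3 it was 0 of 203 reads, which allows a share of up to 1.48% (3 counts of the total), with an exact 95% binomial upper bound of 1.80%. Exact 95% binomial intervals ran from 0.341% to 2.01% in Plg KO 2 and from 0.691% to 4.04% in Plg WT 1, the highest library of each group. The log2 ratio of Tnfsf11 to Tnfrsf11b, with 0.5 added to each count, averaged -7.05 ± 0.37 in Plg KO and -6.84 ± 1.62 in Plg WT (SD, n = 3 each). The difference of -0.21 between the groups was smaller than the spread in Plg WT, and both depend on what is added to the 0 count of Plg WT 3. With 2 added to each count the ratio averaged -6.67 ± 0.31 in Plg KO and -5.85 ± 0.73 in Plg WT, a difference of -0.82 that is larger than either SD. With 0.5 added, the sign of the difference turned without Plg WT 1 (0.41) or Plg WT 2 (0.085) and its size was -1.13 without Plg WT 3, so the counts give no direction for the ratio.

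**Figure D2:**
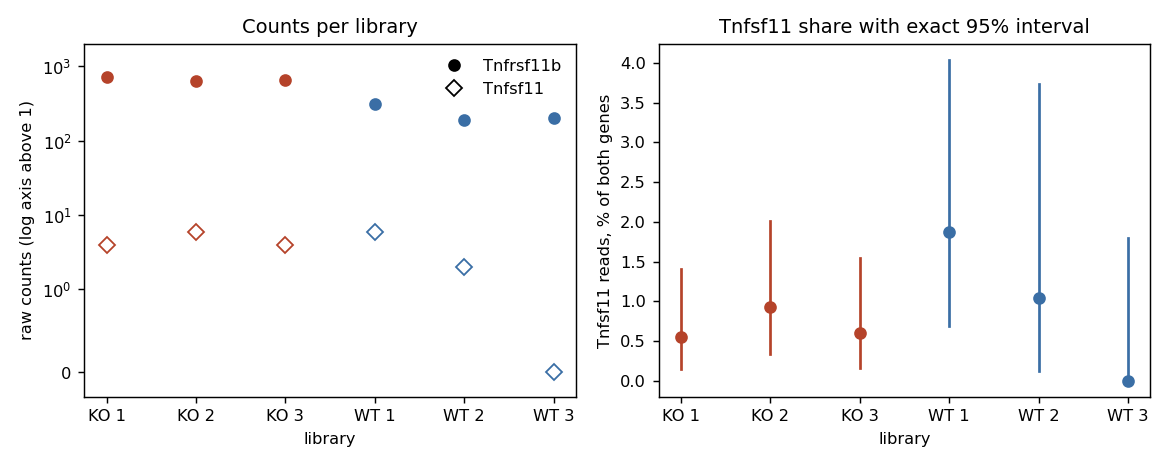
Left, raw counts of Tnfrsf11b (filled circles) and Tnfsf11 (open diamonds) in each Plg KO (red) and Plg WT (blue) library, on an axis that is logarithmic above 1. Right, Tnfsf11 reads as a percentage of the reads of both genes, with exact 95% binomial intervals. Tnfsf11 had at most 6 counts in any library, and the intervals of the groups overlap.

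Transcripts of lymphocytes, which can show RANKL, were low. T and B cell markers summed to 33.4 to 64.8 CPM in Plg KO and 38.9 to 93.6 CPM in Plg WT. The B cell receptor component Cd79a had 0.324, 0.117 and 0.420 CPM in Plg KO, against 15.4, 5.07 and 2.31 CPM in Plg WT, and its log2 difference of -4.66 ± 0.81 missed the threshold (adjusted p = 0.0949 in edgeR's test). The T cell receptor chain Trac had 1.28 to 1.51 CPM in Plg KO and 1.31 to 3.21 CPM in Plg WT. Whether the lymphocyte levels bear on Tnfsf11 was not tested.

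RANK varied more within groups than between them. Tnfrsf11a (ENSMUSG00000026321, chromosome 1, 105780718 to 105847981, plus strand) had 2.83, 1.75 and 4.26 CPM in Plg KO 1, 2 and 3, against 3.17, 1.14 and 1.28 CPM in Plg WT 1, 2 and 3. Plg WT 1 stood among the Plg KO libraries and the other Plg WT libraries below them all. The log2 difference was 0.66 ± 0.48, with a 95% interval of -0.47 to 1.78 and an adjusted p of 0.749 in edgeR's test, and it was 1.29 without Plg WT 1, 0.30 without Plg KO 3, 0.41 without Plg WT 2 and 0.45 without Plg WT 3. The pair of libraries lowest in Tnfrsf11a, Plg WT 2 and 3, was also the lowest in gland markers, while Plg KO 2, with 1.75 CPM of Tnfrsf11a, had 8991 CPM of gland markers. The part of gland tissue in this result was not tested.

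Csf1, the growth factor that keeps osteoclast precursors alive, did not differ beyond the spread. Csf1 (ENSMUSG00000014599, chromosome 3) had 3.64, 2.64 and 4.68 CPM in Plg KO 1, 2 and 3, against 3.19, 4.46 and 3.91 CPM in Plg WT 1, 2 and 3. The highest and the lowest library were both Plg KO. Its log2 difference was -0.07 ± 0.26 with a 95% interval of -0.67 to 0.53 (adjusted p = 0.966 in edgeR's test). Its receptor on macrophages and osteoclasts, Csf1r, had 9.37, 8.74 and 6.97 CPM in Plg KO and 9.44, 9.64 and 5.96 CPM in Plg WT.

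The enzymes of resorption did not differ beyond their spread. Acp5, the tartrate-resistant acid phosphatase that stains osteoclasts and some macrophages (ENSMUSG00000001348, chromosome 9), had 72.5, 81.1 and 76.9 CPM in Plg KO 1, 2 and 3, against 80.6, 74.0 and 71.2 CPM in Plg WT 1, 2 and 3. Each group spanned nearly the same range. Its log2 difference was 0.03 ± 0.09, with a 95% interval of -0.18 to 0.24, the narrowest among the members tested (adjusted p = 0.958 in edgeR's test).

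Ctsk, cathepsin K, digests bone collagen in osteoclasts and is also made by fibroblasts. Ctsk (ENSMUSG00000028111, chromosome 3) had 12.4, 8.90 and 9.66 CPM in Plg KO 1, 2 and 3, against 9.53, 13.2 and 10.5 CPM in Plg WT 1, 2 and 3. The groups overlapped, with the highest library in Plg WT and the lowest in Plg KO. The log2 difference was -0.10 ± 0.18 with a 95% interval of -0.53 to 0.33 (adjusted p = 0.926 in edgeR's test). The highest library for Ctsk, Plg WT 2, was also the highest in summed fibroblast markers at 3780 CPM, and the lowest, Plg KO 2, was the lowest at 1446 CPM. The part of fibroblast content in the Ctsk values was not tested.

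**Figure D3:**
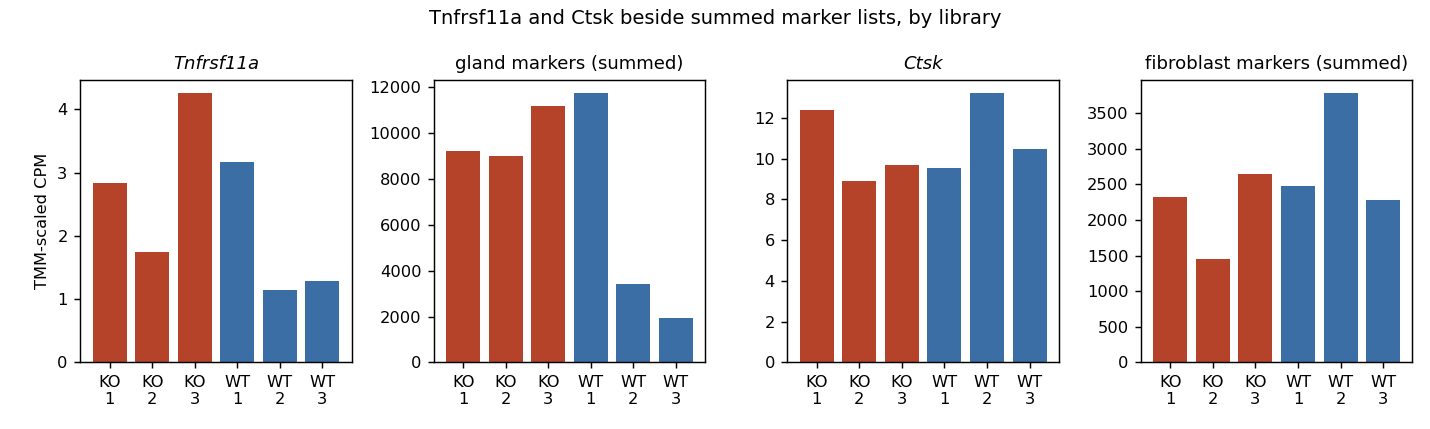
TMM-scaled CPM of Tnfrsf11a, summed gland markers, Ctsk and summed fibroblast markers in Plg KO (red) and Plg WT (blue) libraries. Plg WT 2 and 3 are lowest in both Tnfrsf11a and gland markers, and Plg KO 2 is lowest and Plg WT 2 highest in both Ctsk and fibroblast markers.

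The transcripts most restricted to multinucleated osteoclasts had few counts. Dcstamp, which precursors need to fuse and which dendritic cells also carry (ENSMUSG00000022303, chromosome 15), had 21, 13 and 6 counts in Plg KO 1, 2 and 3, against 1, 10 and 3 counts in Plg WT 1, 2 and 3. Plg WT 2 lay above Plg KO 3, so the groups overlapped. Pooled over a group, the exact 95% Poisson intervals were 0.291 to 0.554 CPM in Plg KO and 0.0798 to 0.245 CPM in Plg WT. These did not overlap, but they cover counting error only and not the spread among libraries. The log2 difference was 1.41 ± 0.83, its 95% interval of -0.53 to 3.36 was the widest among the members tested (adjusted p = 0.678 in edgeR's test), and the value was 2.71 without Plg WT 2 and 0.87 without Plg WT 1. Dendritic cell markers summed to 24.8 to 36.7 CPM in Plg KO and 28.1 to 33.3 CPM in Plg WT.

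Ocstamp, a second protein of osteoclast fusion (ENSMUSG00000027670, chromosome 2), had 9, 8 and 4 counts in Plg KO 1, 2 and 3, against 0, 3 and 7 counts in Plg WT 1, 2 and 3. Plg WT 3 lay above Plg KO 3, and the pooled levels were 0.214 CPM in Plg KO and 0.104 CPM in Plg WT. Their exact 95% Poisson intervals overlapped, since the lower bound was 0.132 CPM in Plg KO and the upper bound 0.192 CPM in Plg WT. Calcr, the receptor through which calcitonin restrains osteoclasts (ENSMUSG00000023964, chromosome 6), had 0, 0 and 14 counts in Plg KO 1, 2 and 3, against 3, 1 and 4 counts in Plg WT 1, 2 and 3. All of its Plg KO counts came from 1 library, so no direction can be read from it. Tnfsf11, Ocstamp and Calcr did not pass the filter and have no main test.

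Itgb3, the integrin beta 3 chain, pairs with Itgav in osteoclasts and with Itga2b in platelets. Itgb3 (ENSMUSG00000020689, chromosome 11) had 3.70, 5.24 and 5.69 CPM in Plg KO 1, 2 and 3, against 3.44, 2.36 and 2.05 CPM in Plg WT 1, 2 and 3. The groups did not overlap, as for 7.51% of all genes tested with Plg KO above, and Plg KO 1 and Plg WT 1 lay close together. Its log2 difference was 0.89 ± 0.27 with a 95% interval of 0.26 to 1.52, and it missed the threshold over all genes (adjusted p = 0.335 in edgeR's test, and 0.105 without Plg WT 1). Its partners differed less, with log2 differences of 0.20 ± 0.11 for Itgav and -0.18 ± 0.14 for Itga2b, though the difference between these values was not tested. Platelet and megakaryocyte markers summed to 26.7 to 30.1 CPM in Plg KO and 23.5 to 27.4 CPM in Plg WT. Of 11, 4 passed the filter, 2 with a positive and 2 with a negative log2 difference. Among them Pf4, a platelet chemokine, had 14.4, 13.1 and 18.5 CPM in Plg KO and 13.7, 13.1 and 9.39 CPM in Plg WT. Gp9 did not pass the filter, with 6, 9 and 9 counts in Plg KO and 1, 1 and 1 in Plg WT. The part of platelets in the Itgb3 values was not tested.

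**Figure D4:**
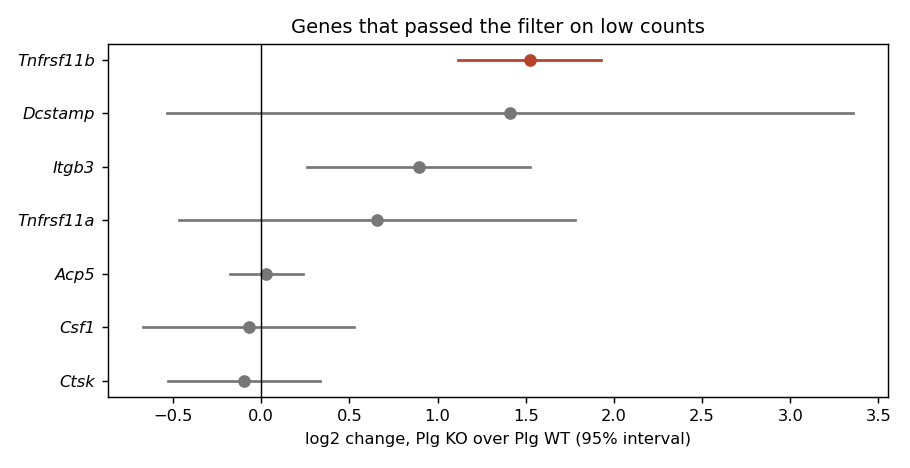
Log2 change of the 7 genes that passed the filter, Plg KO over Plg WT, with 95% intervals from edgeR's fit. Tnfrsf11b (red, 1.52) was called at an adjusted p under 0.05. The intervals of Itgb3 and Tnfrsf11b lie above 0 and those of the other 5 include 0.

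Levels of different members were compared as CPM per kilobase of exon. In Plg KO, Acp5 led at 37.8 ± 2.13 CPM per kilobase, followed by Tnfrsf11b at 7.43 ± 1.23 and Ctsk at 6.82 ± 1.21, whose libraries overlapped each other. Itgb3 (0.826 ± 0.177), Csf1 (0.692 ± 0.193) and Tnfrsf11a (0.492 ± 0.210) came next, and each overlapped its neighbour in this order. Dcstamp (0.155 ± 0.0806), Tnfsf11 (0.0675 ± 0.0318), Ocstamp (0.0607 ± 0.0276) and Calcr (0.0334 ± 0.0579) followed and overlapped likewise. In Plg WT the order put Ctsk at 7.32 ± 1.27 above Tnfrsf11b at 2.58 ± 0.401 without overlap, and Csf1 at 0.730 ± 0.121 above Itgb3 at 0.443 ± 0.124 without overlap (SD, n = 3 in each group).

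Of other transcripts tied to osteoclasts, Oscar, Siglec15 and Atp6v0d2 were low, while macrophage markers were readily detected. Other genes of the resorption list were not low, such as Tcirg1 (mean 46.3 CPM in Plg KO, 44.6 CPM in Plg WT) and Clcn7 (70.8 and 74.8 CPM). Oscar, a co-receptor of the osteoclast lineage, had 3 counts over Plg KO and 0 over Plg WT, and Siglec15 had 1 over Plg KO and 0 over Plg WT. Atp6v0d2, the proton pump subunit of osteoclasts, had 0.702, 0.311 and 0.364 CPM in Plg KO and 0.573, 0.357 and 0.224 CPM in Plg WT. Macrophage markers summed to 167.2 to 250.9 CPM in Plg KO and 148.8 to 189.4 CPM in Plg WT, with the pan-macrophage Cd68 at 12.5, 13.7 and 13.9 CPM in Plg KO and 11.7, 12.7 and 11.7 CPM in Plg WT. Lyz2 held much of these sums, at 80.3 to 154.6 CPM in Plg KO and 79.4 to 106.9 CPM in Plg WT. Within the list, Cd14 was higher and Cd163 lower in Plg KO without overlap, as were 7.51% and 7.18% of all genes tested.

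Downstream of RANK, the signal relay showed no called gene. Of 19 genes, 0 were called by edgeR, DESeq2 or limma-voom, which called 0.191%, 1.54% and 0.18% of all genes tested higher. At such shares, 0 called of 19 is not particular to the relay. Before adjustment, 1 was higher (p below 0.05 in edgeR's test), as were 4.97% of all genes tested. The median log2 difference was 0.05, against -0.0043 over all genes tested. The kinase Mapk14 had the smallest p at a log2 difference of 0.29 ± 0.11, followed by the adaptor Traf6 at 0.21 ± 0.13. Nfatc1, the transcription factor that drives osteoclast genes, had 7.99, 9.09 and 8.77 CPM in Plg KO and 12.3, 9.35 and 8.91 CPM in Plg WT, a log2 difference of -0.24 ± 0.16.

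Of 6 co-receptor genes that passed the filter, 0 were called by edgeR (2 higher and 1 lower before adjustment, p below 0.05) and 0 by limma-voom, with a median log2 difference of 0.21, where 4.97% of all genes tested were higher and 4.27% lower before adjustment. DESeq2 called 1 of them lower, Plcg2, as it did 0.721% of all genes tested. The signalling phospholipase Plcg2, which B cells and myeloid cells share, had 17.98, 15.8 and 18.6 CPM in Plg KO, against 27.6, 31.0 and 27.8 CPM in Plg WT, and its log2 difference of -0.72 ± 0.11 missed the threshold (adjusted p = 0.0698 in edgeR's test). The adaptors Tyrobp and Fcer1g, which carry such receptors in myeloid cells, had log2 differences of 0.62 ± 0.16 and 0.43 ± 0.17.

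Of 14 tested genes of acid secretion and resorption, 1 was called higher and 0 lower by edgeR, against 0.191% and 0.0451% of all genes tested, with a median log2 difference of 0.15. The called gene was the gelatinase Mmp9, which osteoclasts and neutrophils both make, at 65.9, 49.2 and 40.6 CPM in Plg KO, against 10.6, 7.25 and 4.97 CPM in Plg WT (log2 change 2.77 ± 0.30, adjusted p = 0.0245 in edgeR's test). The call was lost without Plg KO 2 (adjusted p = 0.117), Plg KO 3 (0.0697), Plg WT 2 (0.165) or Plg WT 3 (0.0831). The neutrophil markers given above were also higher in Plg KO. Their sums were 217.1, 497.8 and 140.6 CPM in Plg KO 1, 2 and 3. In Plg WT 1, 2 and 3 they were 29.0, 51.6 and 68.2 CPM. The part of neutrophils in the Mmp9 values was not tested. The sorting nexin Snx10 and the membrane protease Mmp14 had log2 differences of 0.45 ± 0.18 and 0.19 ± 0.08, and Ostm1, which pairs with the chloride channel of the resorbing membrane, had 0.16 ± 0.08.

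Cytokines and mediators known to raise osteoclast formation held 3 of the 4 called genes of the 5 pathway lists. Of 13 tested, edgeR called 3 higher and 0 lower (8 higher and 1 lower before adjustment, p below 0.05), against 0.191% and 0.0451% of all genes tested (4.97% and 4.27% before adjustment). The median log2 difference was 1.37, against -0.0043 over all genes tested. Neutrophil markers, at 140.6 to 497.8 CPM in Plg KO and 29.0 to 68.2 CPM in Plg WT, were also higher in Plg KO. Their part in the values of this list was not tested. The list was written with earlier results of these libraries known, so its direction is not independent evidence. The called genes were Ptgs2, the prostaglandin-forming cyclooxygenase (log2 change 4.13 ± 0.55), the gp130 cytokine Osm (3.01 ± 0.39) and Il1b (2.85 ± 0.33), with adjusted p of 0.0446, 0.0446 and 0.0252 in edgeR's test. In Plg WT 1, 2 and 3, Ptgs2 had 9, 3 and 2 counts and Osm 10, 7 and 10 counts. In Plg KO 1, 2 and 3, Ptgs2 had 63, 100 and 79 counts and Osm 55, 85 and 77 counts. With so few counts in Plg WT, the sizes of the Ptgs2 and Osm changes are uncertain. Without Plg KO 2, Plg KO 3, Plg WT 2 or Plg WT 3 all 3 calls were lost (adjusted p = 0.0926 to 0.266), and that of Ptgs2 also without Plg KO 1 (adjusted p = 0.0502). DESeq2 called 8 of the 13 higher and limma-voom 1, Il1b, against 1.54% and 0.18% of all genes tested.

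Among those not called, Il1a, the second interleukin-1, had 7.29, 14.2 and 10.5 CPM in Plg KO and 4.20, 3.999 and 3.27 CPM in Plg WT (log2 difference 1.47 ± 0.26, adjusted p = 0.0954 in edgeR's test). Il6 had 89 counts over Plg KO and 10 over Plg WT, and the monocyte chemokine Ccl2 had 37.3, 33.6 and 17.2 CPM in Plg KO and 6.99, 15.1 and 9.77 CPM in Plg WT. Pthlh, the parathyroid hormone-like peptide, had 31.2, 33.8 and 18.5 CPM in Plg KO and 11.8, 18.9 and 10.7 CPM in Plg WT, and overlapped between groups. Il34, the other ligand of Csf1r, had 23.9, 28.2 and 15.9 CPM in Plg KO and 15.7, 17.96 and 21.3 CPM in Plg WT and also overlapped. The chemokine Cxcl12 was the gene lower before adjustment, at 35.0, 41.5 and 53.1 CPM in Plg KO and 78.5, 58.6 and 57.2 CPM in Plg WT (log2 difference -0.58 ± 0.19, adjusted p = 0.363 in edgeR's test). Its groups did not overlap, as for 7.18% of all genes tested with Plg KO below. Tnf had 3.13, 5.40 and 3.33 CPM in Plg KO and 2.24, 1.43 and 0.865 CPM in Plg WT. Its log2 difference was 1.37 ± 0.39 (adjusted p = 0.289 in edgeR's test). Il17a had 0 counts in all 6 libraries. Il17f did not pass the filter, with 9, 30 and 1 counts in Plg KO 1, 2 and 3 and 3, 1 and 2 counts in Plg WT 1, 2 and 3.

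Of 10 tested brakes on osteoclast formation, 0 were called by edgeR (2 higher and 1 lower before adjustment, p below 0.05) and 0 by limma-voom, with a median log2 difference of 0.14, where 4.97% of all genes tested were higher and 4.27% lower before adjustment. DESeq2 called 1 of them higher, Il1rn, as it did 1.54% of all genes tested. Il1rn, the interleukin-1 receptor antagonist, had 367.7, 451.7 and 316.9 CPM in Plg KO, against 191.9, 197.5 and 197.1 CPM in Plg WT, and its log2 difference of 0.95 ± 0.14 missed the threshold (adjusted p = 0.0582 in edgeR's test). The NF-kappaB inhibitor Tnfaip3 had 6.21, 6.18 and 5.24 CPM in Plg KO and 3.71, 4.50 and 3.40 CPM in Plg WT, and the secreted protein Fstl1 had a log2 difference of -0.27 ± 0.11.

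**Figure D5:**
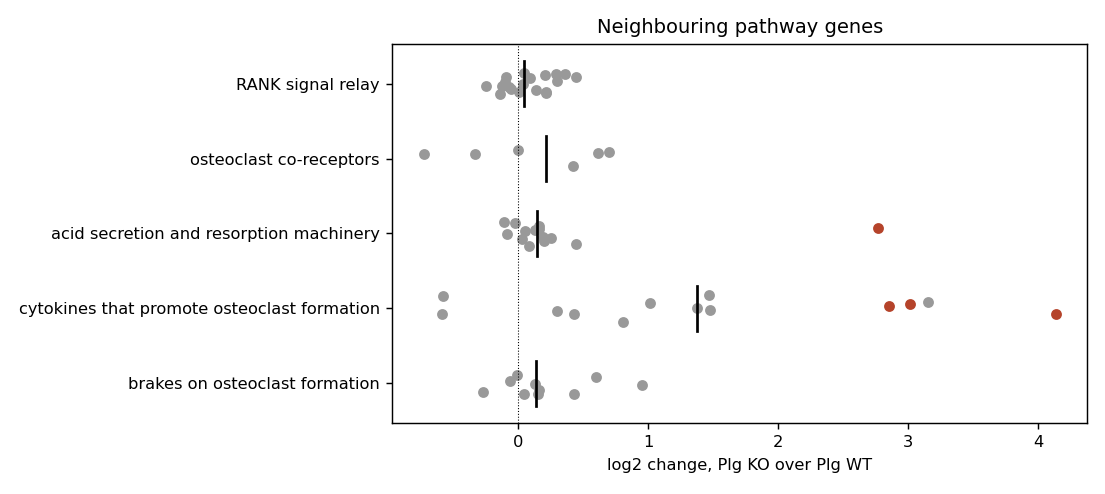
Log2 change of each tested gene in 5 lists around RANKL signalling, Plg KO over Plg WT. Red points were called at an adjusted p under 0.05, grey points were not, and black bars are list medians. The 4 called points are Mmp9 in the resorption list and Ptgs2, Osm and Il1b in the cytokine list.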

How the data were processed

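Gingival RNA from 6 libraries, 3 Plg KO and 3 Plg WT, was prepared with the Nextera XT kit, which does not mark strand, and read as 37 bp pairs, per the labels' protocols. Only microRNA genes overlap a member (Calcr) in the annotation. STAR 2.5.2a, edgeR, limma and DESeq2 and the builds GRCm38.p3 and mm10 stand in the submitters' processing notes without a role. Of the counter and gene annotation, nothing is given in the sources used here. The authors deposited raw counts per gene, and a second table of CPM that they scaled with TMM, which holds genes whose count passed 5 in any library. Each CPM column times 1 constant gave whole reads for 100% of values (within 0.01 read), and tested with edgeR these called 34 genes higher and 8 lower. Entries that name no gene (22) took at most 3.55e-05% of a library and were left out.

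The main test was edgeR 4.0.16 (R 4.3.3) on the raw counts, with TMM, filterByExpr, genotype as the only term and Benjamini-Hochberg adjustment over 17757 genes. SE is the log2 change divided by the square root of F. CPM in the text is scaled with these factors, and exon lengths and positions come from GENCODE M21 (GRCm38). DESeq2 1.42.0, limma 3.58.1, other factors, filters and pseudocounts, a sex term, a replicate block and leaving out each library were alternatives. Scripts were tested on simulated data. No 2 libraries were copies of each other (chi-square per degree of freedom 21.4 to 111.4).

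The members, the 5 pathway lists and the 11 marker lists were chosen with earlier results of these data known. All members are named, with every called gene of a pathway list and up to 3 others with the smallest p, and of marker lists the called and the defining genes. Which markers count as defining (Cd79a, Trac, Itga2b, Pf4, Cd68, Sost, Mepe) was decided after their values were seen. The likeness rule also covered Tnfsf11, whose counts were too low for it. Genes named beyond these rules (Csf1r, Pthlh, Il34, Tnf, Il17a, Il17f, Oscar, Siglec15, Atp6v0d2, Tcirg1, Clcn7, Itgav, Cxcl12, Runx2, Lyz2, Cd14, Cd163, Gp9) were chosen after their values were seen. Of the list symbols, 1 was not matched. Ratios and shares of Tnfsf11 and Tnfrsf11b are descriptions.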

Additional observations from a re-analysis of the deposited data

How the results depend on the processing

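With edgeR, 34 genes were higher and 8 lower over all genes. These counts were 274 and 128 with DESeq2, 122 and 40 with no filter, 54 higher with a sex term, and 2 and 0 with the replicate block. Leaving out each library gave 1 to 184 higher and 1 to 35 lower, the largest counts being without Plg WT 1. Among members, 1 was called higher under each of the 10 other settings, 0 with the replicate block and 0 to 1 without 1 library, and 0 were called lower in any of these fits. Tnfrsf11b had a log2 change of 1.30 to 1.52 under those 10 settings, 1.52 with the replicate block (adjusted p = 0.214 in edgeR's test) and 1.38 to 1.66 without 1 library. Same-numbered libraries did not deviate together (correlations of -0.32, -0.02 and -0.31). With 3 libraries a group that differ in make-up, this cannot show whether same-numbered libraries shared a litter or batch. Without 1 library, the log2 difference ran from -0.29 to 0.11 for Csf1, -0.26 to 0.047 for Ctsk and -0.011 to 0.081 for Acp5. The sign turned for Csf1 without Plg KO 2 (0.11) or Plg WT 2 (0.047), for Ctsk without Plg WT 2 (0.047) and for Acp5 without Plg KO 2 (-0.011) or Plg WT 3 (-0.0088). The difference in the Tnfsf11 to Tnfrsf11b log2 ratio was -0.82 with 2 added to each count and -1.13 to 0.41 without 1 library. The calls of Il1b, Osm and Ptgs2 were also lost with the replicate block, and those of Osm and Ptgs2 with limma-voom. On the log2(CPM + pseudocount) scale of limma-trend, Osm missed the threshold with 0.5 added (1.80, adjusted p = 0.0508) and both Osm (0.90, adjusted p = 0.0808) and Ptgs2 (1.076, adjusted p = 0.0734) with 2 added. Plcg2, Il1a, Ccl2, Il6, Il1rn and Cd79a passed the threshold with DESeq2. In edgeR's test with no filter, Plcg2, Il1a, Il1rn and Cd79a also passed (adjusted p = 0.0357, 0.0152, 0.00572 and 0.00577). Il1a passed in edgeR's test with a sex term (adjusted p = 0.0435) and without Plg KO 1 (0.0471), and Cd79a without Plg WT 1 (0.0434). The cause of these shifts was not tested. Depth limits Tnfsf11, Ocstamp and Calcr, whose direction cannot be read from these counts.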
